A study of Mus musculus with 3 samples.

Results

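The matrix metalloproteinases (Mmps), the Adamts enzymes, the Adamts-like proteins and their tissue inhibitors (Timps) were described in mouse posterior frontal sutures, which join the paired frontal bones at the midline of the skull. Members were all genes that the array files name Mmp, Timp, Adamts or Adamtsl followed by a number, on probes that are not controls. The rule gave 51 of 35019 genes, measured by 74 probes, and comprised 23 Mmps, 19 Adamts enzymes, 5 Adamts-like proteins and 4 Timps. Total RNA of the suture was hybridised to 3 one-colour Agilent arrays, each holding a different group. All mice were C57BL/6. The groups were Runx2+/+ mice at postnatal day 5 (P5 wild type), Runx2+/+ mice at day 7 (P7 wild type) and Runx2+/- mice at day 7, heterozygous for the transcription factor that osteoblasts need to form. The number of mice behind each array, the suture layers taken and the lesion of the Runx2 allele are not in the labels. With 1 array in each group no difference has a replicate check, and no p-value is given.

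Mmps are secreted or membrane-bound zinc proteases that cut collagens, gelatins and other matrix proteins, and most are made as inactive proenzymes. Adamts enzymes share their kind of catalytic domain and add thrombospondin repeats that hold them in the matrix, where they cut proteoglycans or trim procollagens, whereas Adamts-like proteins lack the catalytic domain. Timps bind the active site of these enzymes and block it, and in growing skull bone the balance between them goes with the turnover of osteoid, cartilage and suture matrix.

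Levels are given in log2 units relative to the 75th percentile of the same array, so that 0 is a probe at that percentile. A probe counts as well above background where the scanner software said so for its spots. That percentile was 52.1 intensity units for P5 wild type, 22.8 for P7 wild type and 124 for Runx2+/-. Where 3 values are listed together, they are in this order. A probe equally bright on both P7 arrays before scaling is therefore 5.46-fold lower on the Runx2+/- array after it. Any gene, member or not, that is given below as less than 5.46-fold lower in Runx2+/- than in P7 wild type was thus brighter in Runx2+/- before scaling. By age the ratio of the percentiles, P7 over P5, was 0.437, so that modest increases at P7 likewise reverse without scaling. Values before scaling are printed for the main members. The P7 wild-type array was the dimmest, with 37.5% of genes well above background against 48.4% for P5 wild type and 55.2% for Runx2+/-. From spots of probes printed at least 5 times, the technical SD of a log2 difference was 0.25 between the wild-type ages and 0.22 between the genotypes at P7. It holds no variation between animals or dissections. Runx2 itself stood at 2.38, 1.46 and 1.08, 1.30-fold lower in Runx2+/- than in P7 wild type. The tissue label was checked on markers of bone-forming cells, and 8 of 8 osteoblast markers were well above background on each array.

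Of the 51 members, 32 were well above background on at least 1 array (62.7%, against 57.2% of all 35019 genes), and 24 on all of them. By family these were 10 of 23 Mmps, 14 of 19 Adamts enzymes, 4 of 5 Adamts-like proteins and 4 of 4 Timps. Adamts6, Adamtsl5, Mmp8, Mmp15 and Timp4 cleared background in P5 wild type and in Runx2+/- but not on the dim P7 wild-type array. Adamts7, Adamtsl2 and Mmp16 were so on the Runx2+/- array alone. The 19 members not well above background on any array were Mmp1a, Mmp1b, Mmp3, Mmp7, Mmp10, Mmp12, Mmp19, Mmp20, Mmp21, Mmp24, Mmp25, Mmp27, Mmp28, Adamts3, Adamts13, Adamts16, Adamts19, Adamts20 and Adamtsl3. Their probes lay between 2.38 and 13.9 intensity units.

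**Figure D1:**
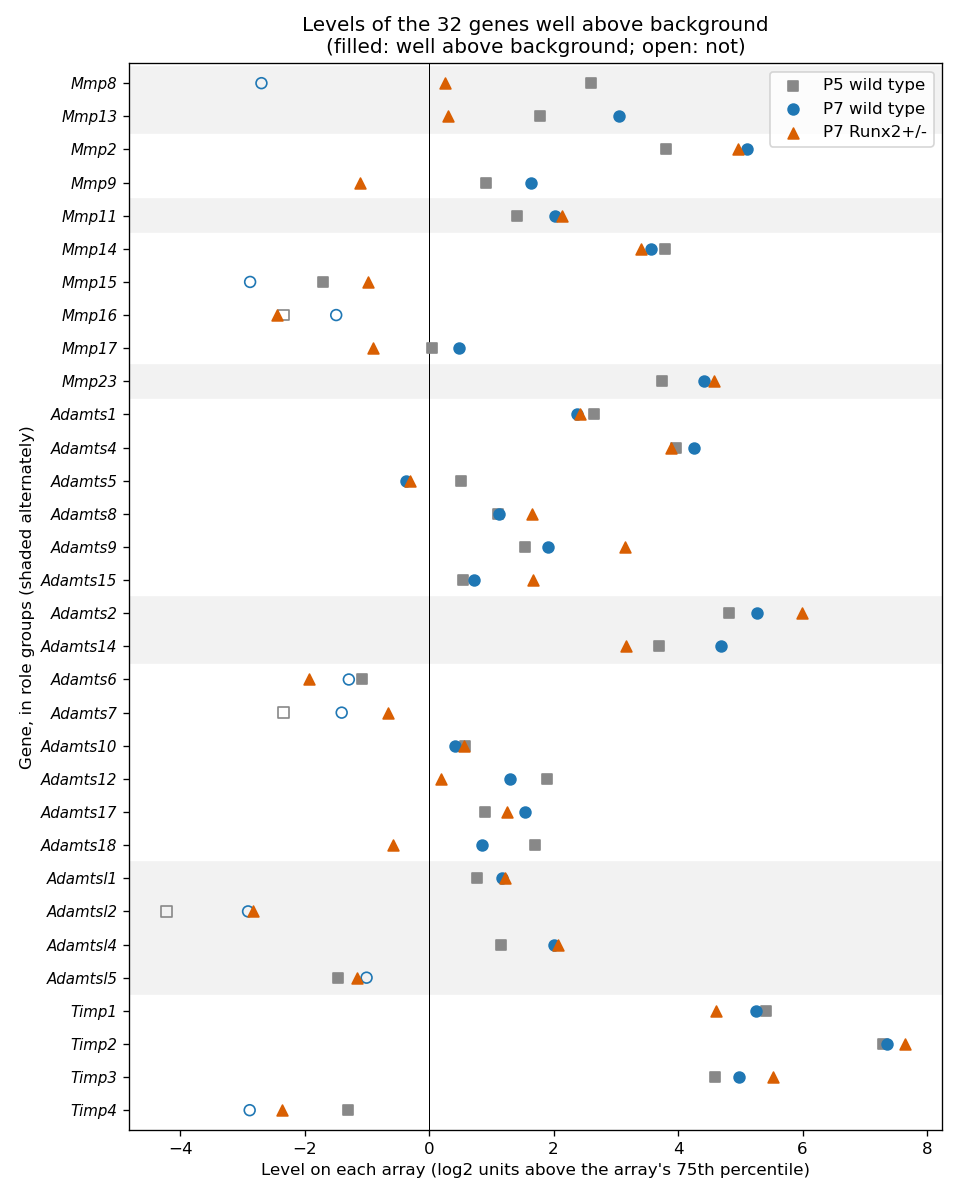
Level of each of the 32 members well above background on at least 1 array (x axis, log2 units above the 75th percentile of the array), by gene in role groups (y axis). Squares are P5 wild type, circles P7 wild type and triangles P7 Runx2+/-, with 1 array each, and open symbols are not well above background. Mmp13, Mmp9, Mmp17 and Adamts14 have the circle to the right of both other symbols, and Adamts9 and Adamts15 have the triangle to the right.

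A difference was taken between arrays on which a gene was well above background. Where it was so on the higher array alone, the difference is a lower bound against the lowest level that array could call, written as at least N-fold. From P5 to P7 in wild type, 25 members had such a difference. Mmp13 and Mmp2 were at least 2-fold higher at P7 (2 of 25, against 6.33% of 14332 genes), and Mmp8 was at least 2-fold lower (1 of 25, against 3.29%). Both shares are close to those of all genes at this number of members. The median member was 0.37 log2 units higher at P7, beside 0.03 for all genes, with 17 members higher and 8 lower. All genes split into 7453 higher and 6879 lower.

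Between the genotypes at P7, 26 members had a difference. Mmp13, Mmp9, Adamts14, Adamts18, Mmp17 and Adamts12 were at least 2-fold lower in Runx2+/- (6 of 26, or 23.1%, against 13.8% of 14420 genes). Adamts9 and Mmp8 were at least 2-fold higher (2 of 26, or 7.69%, against 5.2%). The median member differed by 0.06 log2 units beside 0.14 for all genes, with 15 higher and 11 lower. All genes split into 8482 higher and 5938 lower. Normexp background correction, which adds an offset and compresses dim values, was followed either by scaling to the 75th percentile or by scaling to the median of detected probes. With the 75th percentile the median of all genes was 0.62 for genotype and -0.25 for age. In that setting 7 of 25 members were higher and 2 lower in Runx2+/-, against 31.6% and 3.91% of all genes. Of all genes called, 89.0% were higher in place of 27.4%. With median scaling 3 of 24 members were higher and 6 lower, against 3.6% and 16.0% of all genes, and 18.4% of calls were higher. For age the share of all calls that were higher was 65.8% as reported, 3.31% with normexp and the 75th percentile and 34.9% with normexp and median scaling. Without any scaling the median of all genes was -1.06 for age and 2.29 for genotype, with 1.20% and 99.5% of calls higher. Then 26 of 32 members were higher and 0 lower in Runx2+/-, against 82.7% and 0.41% of all genes. With both normexp settings Mmp13, Mmp9 and Adamts9 kept their genotype calls. With the 75th percentile Adamts2, Adamts15, Mmp2, Mmp23, Timp2 and Timp3 made up the other higher calls. Where a pair of normexp values is given below, the first is with the 75th percentile and the second with median scaling.

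**Figure D2:**
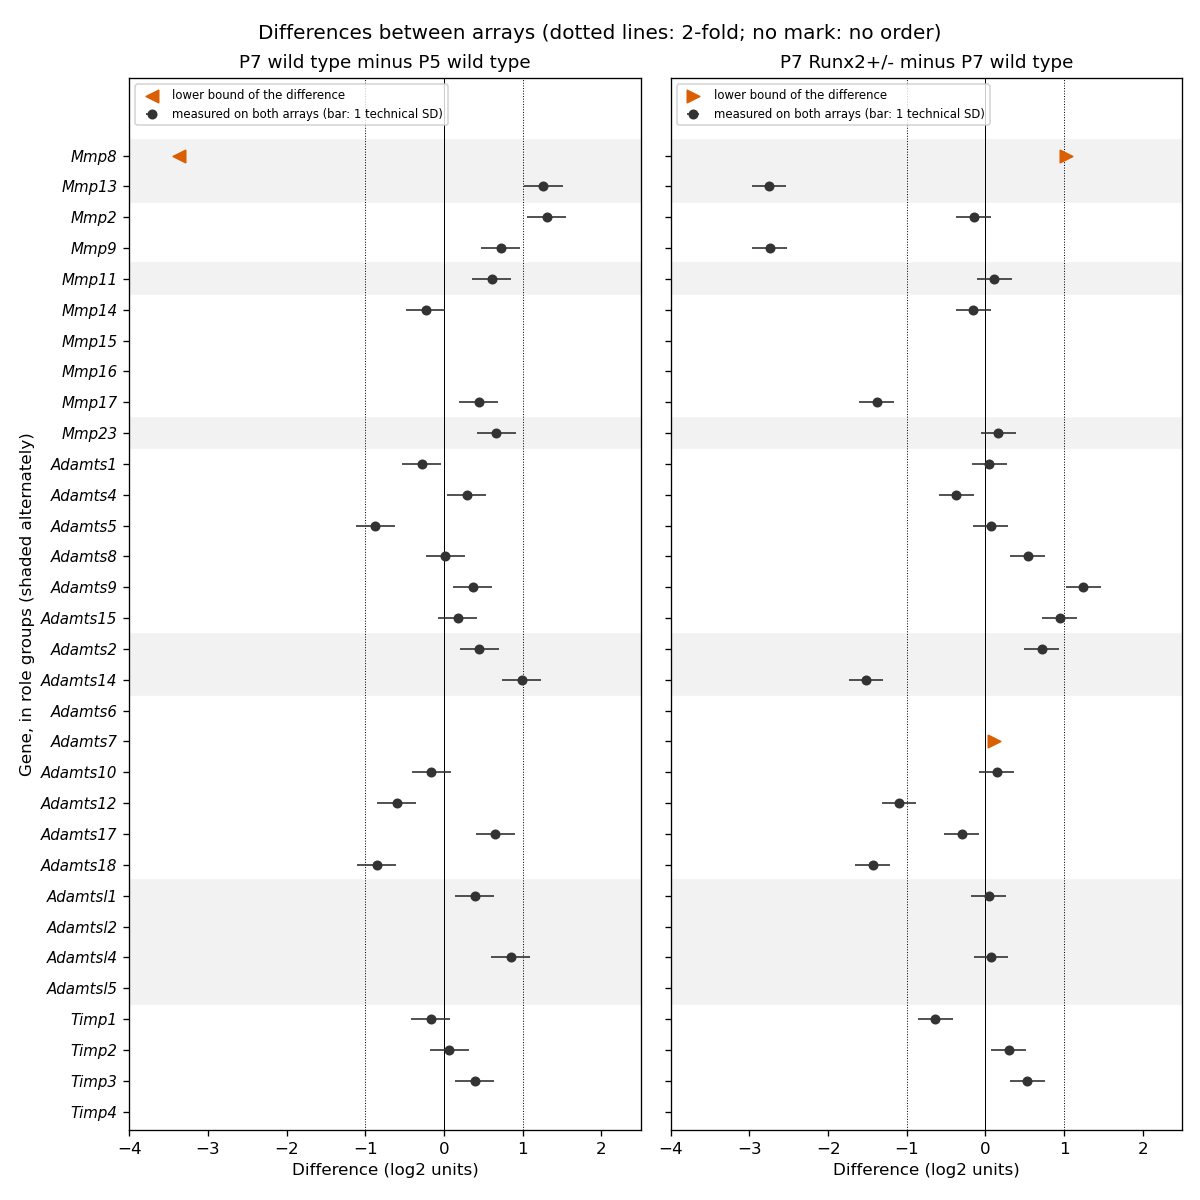
Log2 difference of each member (x axes) between P7 and P5 wild type (left) and between P7 Runx2+/- and P7 wild type (right), by gene in role groups (y axis). Dots were well above background on both arrays with a bar of 1 technical SD from repeated spots, triangles are lower bounds, genes with no mark have no order, and dotted lines mark 2-fold. Mmp13 and Mmp9 lie near -2.75 in the right panel and above 0 in the left.

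The collagenases cut native fibrillar collagen. Mmp13, the collagenase of osteoblasts and hypertrophic cartilage, had levels of 1.79 in P5 wild type, 3.05 in P7 wild type and 0.30 in Runx2+/- (probe at mm9 chr9:7282762-7282821). It was 2.40-fold higher at P7 than at P5 and 6.73-fold lower in Runx2+/- than in P7 wild type. The Runx2+/- array was thus also below P5, by 2.81-fold, a difference past 2-fold in 11 of 12 alternatives that scale the arrays. Before scaling the probe read 180, 188 and 153 intensity units, so the order of the arrays was the same and the size of both differences came mostly with the scaling: without any scaling they were 0.07 and -0.30 log2 units. With normexp correction the age difference was 0.52 and 0.81, and the genotype difference -1.41 and -2.12. Osteoblast markers were also lower in Runx2+/-: 5 of 8 were at least 2-fold below P7 wild type, none was 2-fold apart by age, and their summed level, in multiples of each array's 75th percentile, was 891, 1335 and 271. Their part in the Mmp13 values was not tested.

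Mmp8, the collagenase stored in neutrophil granules, had levels of 2.59 in P5 wild type and 0.25 in Runx2+/- and was not well above background in P7 wild type (probe at mm9 chr9:7568238-7568297). It was at least 10.3-fold lower at P7 than at P5 in wild type, and at least 2.03-fold higher in Runx2+/- than in P7 wild type. Runx2+/- was 5.08-fold below P5 wild type. Before scaling it read 314, 3.52 and 148 intensity units. The array order is therefore the same before scaling, while the genotype bound was past 2-fold in 6 of 10 alternatives and down to 0.28 log2 units with normexp and the 75th percentile. The size of the age bound also depends on the processing. It was past 2-fold in 11 of 11 alternatives, but -1.78 and -1.48 log2 units with normexp correction and -2.78 with a stricter filter on dim probes.

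Most neutrophil markers moved alongside Mmp8. All 8 were well above background on every array, and their summed level was 856 in P5 wild type, 75.1 in P7 wild type and 334 in Runx2+/-. Of the 8, 6 were at least 2-fold lower at P7 than at P5 and 5 were at least 2-fold higher and 1 lower in Runx2+/- than in P7 wild type. Elane, the gene of neutrophil elastase, went against the others, at 1.27, 2.01 and 0.88, and was 1.67-fold higher at P7 than at P5 and 2.19-fold lower in Runx2+/- than in P7 wild type. Ltf, which encodes the granule protein lactoferrin, stood at 4.94, 0.51 and 4.14. The part of these cells in the Mmp8 values was not tested, and in whole tissue fewer cells of a type and less RNA per cell cannot be told apart.

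Mmp13 and Mmp8 lie in a cluster of 10 Mmp genes on chromosome 9 whose probes span 415 kb on mm9. Only these 2 of the 10 were well above background on any array, beside 8 of the 13 Mmps outside the cluster. Mmp12 and Mmp1b, the nearest neighbours of Mmp13, were 77.6 and 85.1 kb away, and Mmp27 lay next to Mmp8. Mmp27 read 3.71, 3.33 and 7.92 intensity units on arrays where Mmp8 read up to 314.

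**Figure D3:**
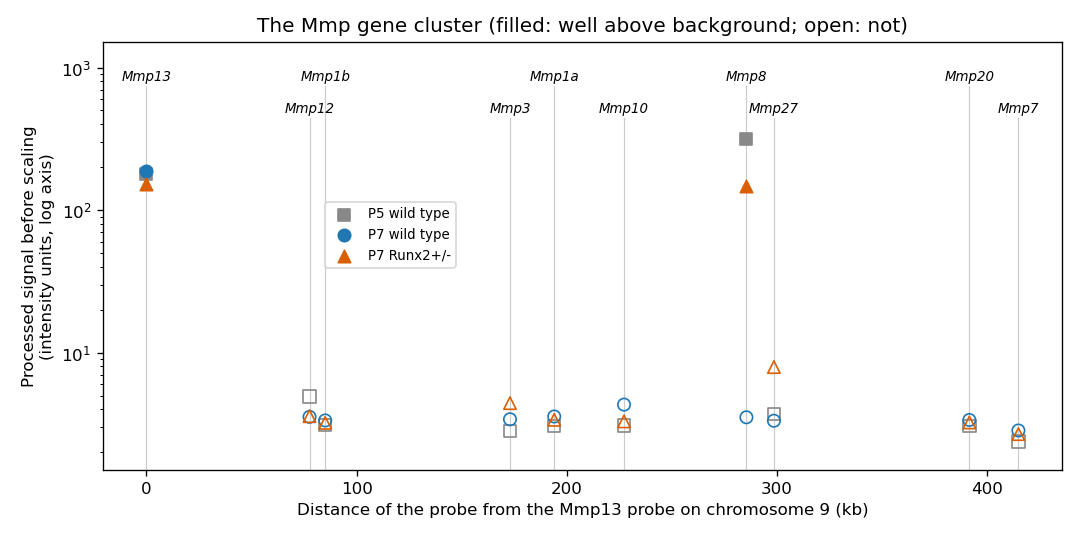
Processed signal before scaling (y axis, intensity units on a log axis) of the 10 Mmp genes of the chromosome 9 cluster, placed by the distance of each probe from the Mmp13 probe (x axis, kb). Squares are P5 wild type, circles P7 wild type and triangles P7 Runx2+/-, and filled symbols are well above background. Mmp13 is filled on all arrays, Mmp8 in P5 wild type and in Runx2+/-, and the other 8 genes on none.

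From the cluster, the promoters of Mmp13 and Mmp8 are shown because only these genes cleared background, and that of Mmp1b because it was the other with both motifs searched in a window and yet did not. The Adamts9 promoter is shown because that gene is higher in Runx2+/-. The 250 bases before the annotated start are printed 5′ to 3′ on the strand of the gene, from RefSeq on GRCm38.p6, a build other than the mm9 of the probes. They are Mmp13 (chr9:7272264-7272513, plus strand), Mmp1b (chr9:7388027-7388276, minus strand), Mmp8 (chr9:7558179-7558428, plus strand) and Adamts9 (chr6:92943535-92943784, minus strand). Capitals mark ACCACA, the core letters bound by Runx factors, or its reverse complement TGTGGT, and the AP-1 letters TGANTCA. Both strands were searched, and no match of 1 motif overlapped the other in these windows.
Mmp13: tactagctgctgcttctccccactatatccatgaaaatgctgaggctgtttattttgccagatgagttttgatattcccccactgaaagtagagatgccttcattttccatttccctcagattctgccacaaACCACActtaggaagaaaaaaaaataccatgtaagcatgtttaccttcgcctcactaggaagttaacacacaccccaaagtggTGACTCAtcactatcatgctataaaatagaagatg
Mmp1b: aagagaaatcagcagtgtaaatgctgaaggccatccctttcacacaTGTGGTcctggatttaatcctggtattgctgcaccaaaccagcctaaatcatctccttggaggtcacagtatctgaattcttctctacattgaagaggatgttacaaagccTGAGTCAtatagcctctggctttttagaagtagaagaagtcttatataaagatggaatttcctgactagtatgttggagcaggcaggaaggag
Mmp8: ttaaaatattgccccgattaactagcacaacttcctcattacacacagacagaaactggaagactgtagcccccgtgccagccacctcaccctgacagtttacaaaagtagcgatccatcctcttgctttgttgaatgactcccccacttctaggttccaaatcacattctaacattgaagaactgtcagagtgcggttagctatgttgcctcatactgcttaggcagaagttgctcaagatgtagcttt
Adamts9: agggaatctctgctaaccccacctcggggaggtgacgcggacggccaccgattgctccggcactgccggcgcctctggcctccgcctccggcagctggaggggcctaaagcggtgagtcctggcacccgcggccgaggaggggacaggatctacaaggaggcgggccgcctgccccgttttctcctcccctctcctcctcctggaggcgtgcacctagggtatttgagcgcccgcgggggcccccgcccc
Mmp13 held the Runx letters with first base at -118 and the AP-1 letters at -35 relative to the start, and Mmp1b held them at -204 and -93. Mmp8 and Adamts9 held neither. Windows were found for 36 of the 51 members, 39 windows in all. The Runx letters were in 6 of the 39 (15.4%), against 14.1% of 32851 windows of the same length. Besides Mmp13 and Mmp1b they were in Mmp7, Mmp14, Mmp23 and Mmp27.

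The AP-1 letters were in 8 of the 39 windows (20.5%, against 6.75% of all). All 8 belong to the cluster: Mmp1a, Mmp1b, Mmp3, Mmp7, Mmp10, Mmp12, Mmp13 and Mmp20. Of these genes only Mmp13 was well above background on any array. Mmp13 and Mmp1b held both motifs within a window (5.13% of member windows, 1.01% of all). The cluster's 12 windows had a median GC content of 40.2%, against 64.4% in the 27 other member windows and 52.4% in all windows. A match describes letters and not a bound site.

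The gelatinases cut denatured collagen and basement membrane collagen. Mmp9, abundant in osteoclasts and also made by neutrophils, had levels of 0.91 in P5 wild type, 1.63 in P7 wild type and -1.11 in Runx2+/- (mm9 chr2:164780620-164780679). It was 1.65-fold higher at P7 than at P5 and 6.70-fold lower in Runx2+/- than in P7 wild type. The Runx2+/- level was also 4.06-fold below P5 wild type. This probe is printed 10 times on each array. Its spots ran from 84.2 to 113 intensity units (median 101) in P5 wild type, from 60.3 to 77.3 (median 73.1) in P7 wild type and from 48.3 to 66.9 (median 58.6) in Runx2+/-. Before scaling the spots of the P7 arrays thus overlapped, and the genotype difference was -0.30 log2 units without scaling and -1.31 and -2.02 with normexp correction. By age the unscaled spots did not overlap and were dimmer at P7. The age difference of Mmp9 was -0.47 log2 units without scaling and 0.15 and 0.44 with normexp correction, so its direction came with the scaling.

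Osteoclast markers, with 7, 6 and 6 of 8 well above background, had summed levels in the array order of Mmp9 after scaling. The sums were 156 in P5 wild type, 307 in P7 wild type and 139 in Runx2+/-. Of the 6 of 8 that had a genotype difference, 4 were at least 2-fold lower in Runx2+/-. Acp5, which encodes tartrate-resistant acid phosphatase, was 5.67-fold lower and Dcstamp, needed for osteoclast fusion, 8.68-fold lower. Calcr, the calcitonin receptor, cleared background on no array, and Ctsk, the osteoclast collagenolytic cathepsin, stood at 5.83, 6.71 and 6.66. Of the 8 neutrophil markers, 5 were at least 2-fold higher in Runx2+/- than in P7 wild type and 1, Elane, lower. The part of either cell type in the Mmp9 values was not tested.

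Mmp2, the gelatinase of mesenchymal cells, had levels of 3.80 in P5 wild type, 5.11 in P7 wild type and 4.96 in Runx2+/- (mm9 chr8:95376840-95376899). It was 2.48-fold higher at P7 than at P5, and the genotypes differed by -0.15 log2 units, less than the technical SD. Both P7 arrays were high and P5 low, with Runx2+/- 2.24-fold above P5 (5 of 30 members at least 2-fold higher in that comparison, against 8.67% of 18148 genes). The probe read 728, 787 and 3883 intensity units before scaling, so without scaling the age difference was 0.11, and with normexp correction it was 0.50 and 0.80. The genotype difference of Mmp2 was 1.06 and 0.34 with that correction.

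Membrane-type Mmps act at the cell surface. Mmp14, which activates proMmp2 and cuts collagen, had similar levels on the arrays, at 3.79, 3.56 and 3.40, and neither difference reached 1.5-fold. Mmp17, a membrane-type enzyme held by a lipid anchor, stood at 0.04 in P5 wild type, 0.49 in P7 wild type and -0.90 in Runx2+/- (mm9 chr5:130113835-130113894). It was 2.61-fold lower in Runx2+/- than in P7 wild type. It lay among the dimmest of 8 equal groups of genes ranked by brightness, whose median genotype difference was -0.63, and its own difference was -0.66 and -1.38 with normexp correction and 1.07 without scaling. Mmp15 was at -1.70 in P5 wild type and -0.98 in Runx2+/-, 1.64-fold apart, with the direction turned by normexp and median scaling (-0.42 log2 units). Mmp16 was well above background in Runx2+/- alone and has no order.

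Of the stromelysin group, matrilysin and metalloelastase, Mmp11 alone was well above background. Mmp11, a stromelysin made by stromal cells and activated inside them, was at 1.42, 2.03 and 2.14, 1.53-fold higher at P7 than at P5 in wild type and 0.12 log2 units apart between genotypes. Mmp23, which has a membrane anchor at its amino end, was at 3.75, 4.41 and 4.57 and 1.59-fold higher at P7 than at P5, a difference that was -0.05 and 0.25 log2 units with normexp correction. As reported, both genes were lowest at P5 and close together on the P7 arrays.

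The aggrecanases and related proteoglycanases cut aggrecan and versican in cartilage and provisional matrix. Of 6 members with a difference, 5 were higher in Runx2+/- and 1 lower, beside 8482 higher and 5938 lower of all genes. Their median was 0.30 log2 units beside 0.14 for all genes. Adamts1 and Adamts5, at 0.05 and 0.07, were within the technical SD of 0.22. By age 4 aggrecanases were higher and 2 lower, with a median of 0.10, beside 7453 higher and 6879 lower of all genes and a median of 0.03.

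Adamts9, a versicanase of blood vessels and mesenchyme, had levels of 1.54 in P5 wild type, 1.91 in P7 wild type and 3.15 in Runx2+/- (mm9 chr6:92723051-92723110). It was 2.37-fold higher in Runx2+/- than in P7 wild type and 3.06-fold above P5 wild type, while the wild-type ages differed by 0.37. Before scaling the probe read 152, 85.5 and 1106 intensity units. Over the 12 alternatives with scaling the genotype difference stayed between 1.01 and 1.83. The second Adamts9 probe was not well above background in P7 wild type and put the difference at 0.34 or more.

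Adamts15, which cuts versican in embryonic tissue, showed the same order at 0.55, 0.73 and 1.67, and was 1.93-fold higher in Runx2+/- than in P7 wild type. Adamts5, the main aggrecanase of mouse cartilage, was at 0.51 in P5 wild type, -0.37 in P7 wild type and -0.30 in Runx2+/-, 1.83-fold lower at P7 than at P5. With normexp correction this age difference was -0.39 and -0.10 log2 units. In P7 wild type its probe read 17.6 intensity units, near that array's lowest well-above signal of 13.3, and its second probe was not well above background. Adamts1 was at 2.65, 2.38 and 2.43 and Adamts4 at 3.96, 4.25 and 3.88, with neither difference at 1.5-fold for either gene. Adamts8 was at 1.10, 1.12 and 1.66, but its probe nearer the 5′ end was 1.43 log2 units lower in Runx2+/- than in P7 wild type where the probe used was 0.54 higher.

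Endothelial and chondrocyte markers were also higher in sum on the Runx2+/- array. The endothelial list, with 6 of 6 well above background on every array, summed to 115, 114 and 187, and 3 of 6 were at least 2-fold higher in Runx2+/- than in P7 wild type and 1 lower. A sum is weighted to the brightest genes: Egfl7, the brightest in Runx2+/-, was 3.04-fold higher there, and Kdr, the brightest in P7 wild type, 3.92-fold lower. The chondrocyte list, with 7, 5 and 7 of 8 well above background, summed to 15.8, 30.7 and 53.1. Of its 7 genes with a genotype difference, 4 were at least 2-fold higher in Runx2+/- and 0 lower. Acan, the brightest of them in P7 wild type, was 1.59-fold lower. Their part in the Adamts9 and Adamts15 values was not tested.

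The procollagen N-proteinases remove the amino propeptide of fibrillar procollagens. Adamts14 had levels of 3.70 in P5 wild type, 4.68 in P7 wild type and 3.16 in Runx2+/- (mm9 chr10:60659860-60659919). It was 1.98-fold higher at P7 than at P5 and 2.87-fold lower in Runx2+/- than in P7 wild type. These values rest on 1 probe: a second probe of the same transcript was well above background on no array (4.87, 3.65 and 8.38 intensity units). With normexp correction the age difference of Adamts14 was 0.292 and 0.585 log2 units. Its genotype difference was -0.32 and -1.04 with normexp correction and 0.93 without scaling, where the probe used read 585 intensity units in P7 wild type and 1114 in Runx2+/-.

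Adamts2, the main procollagen I N-proteinase of skin, went the other way, with levels of 4.82, 5.27 and 5.98 (mm9 chr11:50617472-50617531). It was 1.64-fold higher in Runx2+/- than in P7 wild type and 2.24-fold above P5 wild type. These enzymes of shared substrate thus stood in opposite order on the P7 arrays after scaling. Before it both were brighter in Runx2+/-, Adamts2 with 876 against 7871 intensity units, and with normexp correction Adamts2 differed by 1.90 and 1.19. Adamts3, the third of them, was not well above background. Col1a1, the gene of their substrate collagen I, was 5.56-fold lower in Runx2+/- than in P7 wild type.

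Among the other Adamts enzymes, Adamts18, an enzyme with few known substrates, had levels of 1.70 in P5 wild type, 0.85 in P7 wild type and -0.58 in Runx2+/- (mm9 chr8:116222720-116222779). It was 1.81-fold lower at P7 than at P5, 2.70-fold lower in Runx2+/- than in P7 wild type and 4.88-fold below P5 in Runx2+/-. Adamts12, a proteinase that cuts cartilage oligomeric matrix protein, had levels of 1.89, 1.30 and 0.20 in the same order (mm9 chr15:11266072-11266131). It was 1.51-fold lower at P7 than at P5, 2.14-fold lower in Runx2+/- than in P7 wild type and 3.24-fold below P5 in Runx2+/-. Both genes were highest in P5 wild type and lowest in Runx2+/-.

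With normexp correction the genotype difference was -0.67 and -1.38 for Adamts18 and -0.40 and -1.12 for Adamts12, and without scaling it was 1.02 and 1.35. With the mean over all probes it was -0.72 and -0.23. Against P5 wild type the second probes of both genes were well above background and also lower in Runx2+/-, by -1.72 log2 units for Adamts18 and -1.03 for Adamts12. In that comparison 6 of 30 members were at least 2-fold lower, against 15.4% of all genes.

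Adamts17, an enzyme linked to fibrillin microfibrils, was at 0.90, 1.55 and 1.25 and 1.57-fold higher at P7 than at P5, but -0.77 log2 units apart by the mean of its probes. Adamts10, a fibrillin-binding enzyme, was at 0.58, 0.42 and 0.56, with no difference at 1.5-fold. Adamts6 was at -1.08 in P5 wild type and -1.93 in Runx2+/-. Adamts7, which like Adamts12 cuts cartilage oligomeric matrix protein, was well above background in Runx2+/- alone, at -0.67, and at least 2.74-fold above P5 wild type. That bound was past 2-fold in 8 of 10 alternatives and down to 0.28 log2 units with normexp and the 75th percentile.

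Of the Adamts-like proteins, which bind fibrillin microfibrils, Adamtsl4 was at 1.16, 2.01 and 2.08 and 1.80-fold higher at P7 than at P5 in wild type. Adamtsl1 was at 0.78, 1.17 and 1.21. By the probes used, both were lower at P5 and level between genotypes. A second Adamtsl1 probe was at -0.27, -0.23 and 0.06. With normexp correction the age difference of Adamtsl1 was -0.005 and 0.289, and the genotype difference of Adamtsl4 0.86 and 0.14. The age difference of Adamtsl4 was 0.19 and 0.48 log2 units with that correction and -0.345 without scaling. Adamtsl5 was at -1.47 in P5 wild type and -1.16 in Runx2+/-, and Adamtsl2 was well above background in Runx2+/- alone.

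The Timps are the inhibitors of the family. Timp1, a secreted inhibitor of most Mmps, was at 5.41, 5.25 and 4.61 and 1.56-fold lower in Runx2+/- than in P7 wild type (mm9 chrX:20451802-20451861). The direction depends on the processing: the Timp1 genotype difference was 0.60 and -0.11 log2 units with normexp correction and 1.81 without scaling, where it read 865 and 3040 intensity units. Timp2, which blocks Mmps and also joins Mmp14 in activating proMmp2, was at 7.29, 7.35 and 7.65. Timp3, which binds matrix and blocks several Adamts enzymes, was at 4.60, 4.99 and 5.52. As reported, no Timp was at least 2-fold apart by age or genotype, and the 3 with a difference ranged from -0.64 to 0.53 log2 units by genotype. With normexp correction the genotype difference was 1.73 and 1.01 for Timp3, past 2-fold in both settings, and 1.58 and 0.87 for Timp2. Timp4 was at -1.30 in P5 wild type and -2.37 in Runx2+/-, 2.08-fold lower (past 2-fold in 8 of 12 alternatives), and was not well above background in P7 wild type.

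With all 3 arrays in view, the 24 members well above background on each fell into 5 array orders. In 10 the level was lowest in P5 wild type and highest in Runx2+/-, and in 5 it was lowest in Runx2+/- and highest in P7 wild type. In 4 it was lowest in Runx2+/- and highest in P5 wild type. In 3 it was lowest in P7 wild type and highest in P5 wild type, and in 2 lowest in P5 and highest in P7 wild type. Many neighbours in these orders differ by less than the technical SD. By both age and genotype, 16 of the 24 were within 2-fold, and 8 within 1.5-fold. The orders and these counts were not taken over all genes, so they do not show whether the members differ from other genes.

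For 22 members the array holds several probes. Against P5 wild type, 12 of them had the probes nearest each end of the transcript measured on the Runx2+/- array, and in 4 the probes pointed in opposite directions. For Adamts8 the 5′ probe gave -1.73 and the 3′ probe 0.56, for Adamts17 -1.79 and 0.35, for Adamts5 -0.80 and 0.76, and for Adamts4 0.94 and -0.08. In the other 8 the directions were the same: Adamts2, Adamts9, Adamtsl1, Mmp11 and Timp2 higher by both, and Adamts10, Adamts12 and Adamts18 lower by both. The technical SD of this comparison was 0.20 log2 units. The 3′ values of Adamts4 (-0.08) and Adamts10 (-0.02) are within it, so their direction is not settled. Over 1728 transcripts with several measured probes, the difference from P5 wild type to Runx2+/- grew by a median of 0.35 log2 units for each kb towards the 3′ end. The slope was 0.13 for genotype at P7. Its part in the probe disagreements was not tested.

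**Figure D4:**
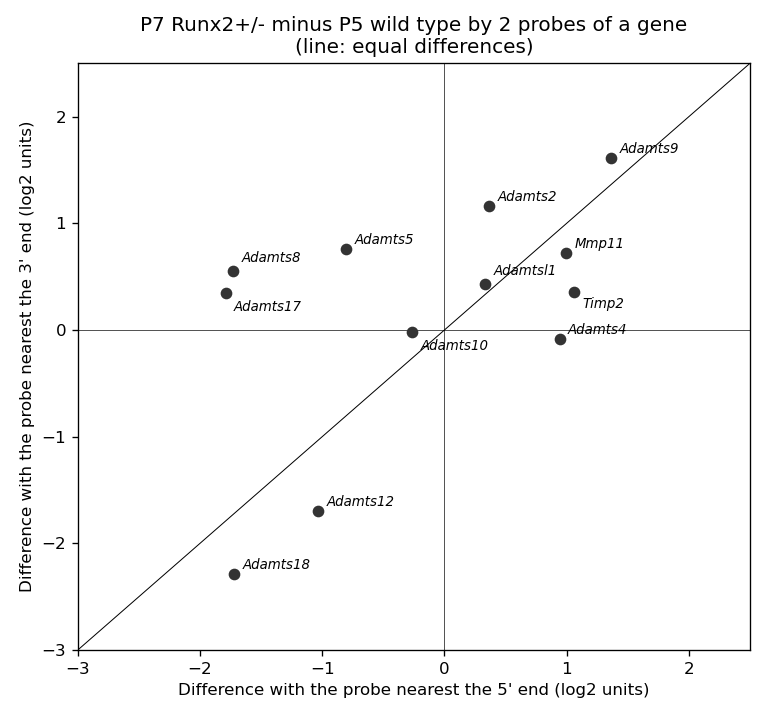
Difference between P7 Runx2+/- and P5 wild type (log2 units) by the probe nearest the 5′ end (x axis) and the probe nearest the 3′ end (y axis) for the 12 members with both measured, 1 point per gene, with a line of equal differences. Adamts8, Adamts17 and Adamts5 lie in the upper left, where the probes point in opposite directions. Adamts9 lies near the line, and Adamts12 and Adamts18 lie below it.

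Other genes of the pathway were taken from lists. Of 16 surface inhibitors, activators and cofactors, 10 had a difference and none was at least 2-fold apart by age or by genotype, with medians of 0.34 and -0.05. Reck, a membrane-anchored inhibitor of several Mmps, was at 1.69, 1.02 and 0.82. Spock2, a proteoglycan that modulates membrane-type Mmps, was at 0.76, -0.03 and -0.94, 1.88-fold lower in Runx2+/- than in P7 wild type.

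Of 15 related metzincins, a wider family of zinc proteases, 10 had a difference. By age 2 were at least 2-fold higher and 1 lower, and by genotype 1 higher and 2 lower. Of all genes, 6.33% were higher and 3.29% lower by age, and 5.2% higher and 13.8% lower by genotype. At this list size the counts are close to those shares. Adam8, found on leukocytes, was at least 4.17-fold lower at P7 than at P5 in wild type and at least 2.38-fold higher in Runx2+/- than in P7 wild type, the array order of Mmp8. Adam12, a membrane-anchored enzyme of muscle and mesenchyme, was 3.16-fold higher at P7 than at P5 and 2.16-fold lower in Runx2+/- than in P7 wild type. Like Mmp13 it was highest in P7 wild type.

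Of 12 substrates, 11 had a difference. By age 2 were at least 2-fold higher and 1 lower, against 6.33% and 3.29% of all genes. By genotype 2 were higher and 4 lower, against 5.2% and 13.8% of all genes. Col2a1, the collagen of cartilage and a substrate of Mmp13, was at 0.22, 1.56 and 3.94 and 5.21-fold higher in Runx2+/- than in P7 wild type. Vcan, the versican core protein cut by Adamts9 and Adamts15, was at 2.66, 2.98 and 3.94 and 1.95-fold higher. Other substrates went the opposite way: the proteoglycan genes Acan and Bcan were 1.59-fold and 2.01-fold lower in Runx2+/- than in P7 wild type. Col1a1, of the fibrillar collagens that collagenases cut, was 5.56-fold lower, the same direction as Mmp13. Eln, the elastin gene, was 4.93-fold higher at P7 than at P5 and 2.18-fold lower in Runx2+/- than in P7 wild type.

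Each genotype call was recomputed under the alternatives that scale the arrays. Mmp13, Mmp9 and Adamts9 were past 2-fold in 12 of 12, Adamts14 and Mmp17 in 11 of 12, and Adamts18 and Adamts12 in 10 of 12. Alternatives that changed only the filter, or took the probe nearest the 3′ end, left each of these at its reported value. They add no separate check. For Mmp13, Mmp9 and Mmp17, with 1 probe each, this also holds for the mean of all probes. Other counts of alternatives given above for genes with 1 probe measured on both arrays have the same limit. The setting that took Adamts14 and Mmp17 below 2-fold was normexp correction with the 75th percentile.

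**Figure D5:**
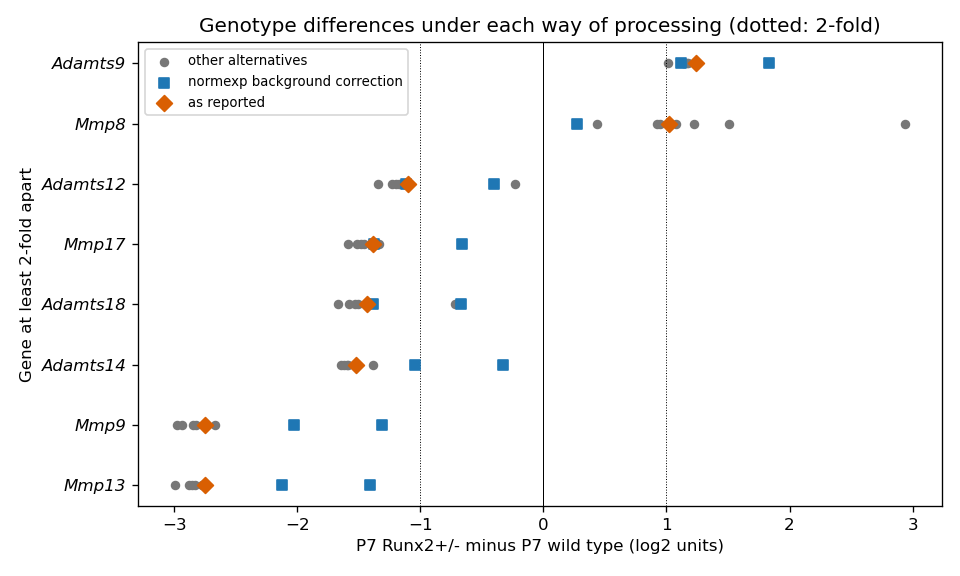
Genotype difference at P7 (x axis, log2 units) of the 8 members at least 2-fold apart (y axis) as reported (diamond), with both normexp settings (squares) and with the other alternatives that scale the arrays (grey dots), with dotted lines at 2-fold. All points of a gene lie on 1 side of 0, and those of Mmp13, Mmp9 and Adamts9 all lie past 2-fold.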

How the data were processed

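Total RNA of posterior frontal sutures was extracted with ISOGEN, amplified and labelled with Cy3, per the labels' protocols. The scanner software was Agilent Feature Extraction: the file headers give version 10.7.1.1, and the submitters' processing notes give 9.5.1.1. The deposited scanner files hold a processed intensity that this software had corrected for background, per the file headers. The authors' own table of processed intensity values was an alternative; how it was made is not given in the sources used here.

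After removal of control and outlier spots, log2 values were averaged over the spots of each of 55680 probes, less the 75th percentile of the array. A probe was well above background where at least 50% of its spots were so flagged, and no spot was saturated. A gene took its brightest probe over the arrays. A lower bound was taken against the lowest well-above level of the other array (floors of -2.12, -0.78 and -3.25 log2 units), or the dim probe's own level if higher. Calls were at least 2-fold. Where neither array, or only the lower one, was well above background, the gene has no order.

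Members well above background on at least 1 array may be named with values, and those at least 1.5-fold apart in full. Of list genes, at most 4 per list and at least 1.5-fold apart are named, with Acan and Bcan added to the substrates beyond that limit. The members and lists were chosen with earlier results of these data known. Probe coordinates are mm9, from the files, and exons or untranslated regions were not looked up. Steps were tested on simulated arrays. Python 3.11.15 with pandas 2.3.3 and R 4.3.3 with limma 3.58.1 (normexp, offset 50, and cyclic loess as alternatives) were used.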

Additional observations from a re-analysis of the deposited data

How the results depend on the processing

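The 3 arrays allow no leave-one-out, and no paired analysis was possible because each group has 1 array. Over the alternatives that scale the arrays, every member called by age or genotype kept its direction. The counts and medians of members moved as follows, with the cause not tested unless the alternative tests fewer or more genes or changes the threshold. For genotype, 1 member was higher, in place of 2, with scaling to probes detected on every array (75th percentile or median), with a stricter filter on dim probes and with genes measured on both arrays only. In these settings 3.9%, 3.6%, 4.3% and 4.3% of all genes were higher. Normexp with the 75th percentile gave 7 higher and 2 lower, with a median of 0.81, against 31.6%, 3.91% and 0.62 for all genes. Cyclic loess gave a median of -0.17, against 0.05 for all genes. With no filter and no floor 22 of 51 were lower and the median was -0.64, against 47.7% and -0.84 for all genes. At 1.5-fold 4 were higher, and at 3-fold 0 were higher and 2 lower, against 19.6%, 0.71% and 7.31% of all genes. For age, 0 were higher with normexp by either scaling, with medians of -0.18 (reversed) by the 75th percentile and 0.11 by the median of detected probes. All genes then had 0.23% and 1.14% higher, with medians of -0.25 and 0.03. With no filter 18 of 51 were higher and 3 lower (median 0.65), against 39.0% and 4.18% of all genes (median 0.52). Genes measured on both arrays gave 0 lower, the mean of all probes 3 lower and the authors' values 2 lower, against 2.32%, 2.75% and 4.45% of all genes. At 1.5-fold 8 were higher and 4 lower, and at 3-fold 0 were higher, against 16.1%, 11.4% and 2.22% of all genes.

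The median of the other Adamts enzymes reversed to 0.017 by age with no filter and to 0.051 by genotype with the mean of all probes. Without any scaling, an alternative chosen after seeing the data, genotype differences reversed for Adamts12 (1.35), Adamts14 (0.93), Adamts18 (1.02) and Mmp17 (1.07), as did Timp4 against P5 wild type (0.20). The comparison of Runx2+/- with P5 wild type was also added after seeing the data. The planned motif search in proteins was not run. Dim members are limited by signal over background, most on the P7 wild-type array.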
